A study of Sus scrofa with 6 samples.

Results

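Adipocyte identity and lipid storage were followed through 7 genes, ADIPOQ, PPARG, FABP4, LPL, LIPE, LEP and PLIN2, in pig back muscle. Every probe set whose platform gene symbol is exactly one of these names was taken, which gave 11 of the 24123 probe sets on the Affymetrix Porcine Genome Array. Of the 11, 4 probe sets read LEP, 2 read LPL and each other gene has 1. Both Large White boars, which served as the control breed, and Northeastern Indigenous boars are represented by 3 animals each, killed at 150 days after shared feeding and housing. The longissimus dorsi of each animal gave 1 array. No treatment or transgene was used, the labels call the animals biological replicates, and 3 animals stand for each breed as a whole.

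Fat cells arise from precursor cells under the nuclear receptor encoded by PPARG, which binds DNA together with a retinoid X receptor and switches on genes of lipid uptake and storage. Mature fat cells take up fatty acids released from blood lipoproteins, bind them to carrier proteins, store them as triglyceride in droplets and release them again through lipases. They also secrete hormones, among them adiponectin and leptin. Within a skeletal muscle, fat cells lie between the fibres, and the fibres themselves also take up and store some lipid.

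Values below are log2 intensities after quantile normalization, on which the median probe set of each array reads 6.73. Probe sets with a mean over the 6 arrays of at least 5.85, the 40th percentile, entered the test between breeds. The arrays give brightness and no read depth, and their small number limits the precision. Skeletal muscle genes were bright on 5 arrays and much dimmer on Large White replicate 1. CKM, the muscle creatine kinase, read 12.78 there and 15.16 to 15.26 on the other arrays. DES, the muscle intermediate filament, read 7.26 on Large White replicate 1, 11.59 on Large White replicate 3 and 12.91 to 13.63 on the remaining 4. Large White replicate 1 therefore stood apart on both genes, and Large White replicate 3 more on DES than on CKM. Over 8 skeletal muscle markers, the median relative to the Northeastern Indigenous mean was -3.38 on replicate 1 and -0.29 on replicate 3. On each of these 8, Large White replicate 1 was the lowest array and Large White replicate 3 the second lowest. The breed differences of the members, of the partner genes whose differences are printed and of the lists are also given without replicates 1 and 3. The labels name the same muscle for all 6 animals. Whether the pieces taken from Large White replicates 1 and 3 held less muscle tissue was not tested.

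ADIPOQ encodes adiponectin, a hormone secreted by fat cells. It read 13.64, 7.22 and 12.50 on Large White replicates 1, 2 and 3, and 7.11, 8.29 and 6.73 on Northeastern Indigenous replicates 1, 2 and 3. Large White replicates 1 and 3 were the bright arrays, and Large White replicate 2 lay inside the range of the Northeastern Indigenous boars, so the breeds overlapped. Between Large White animals the brightest array was 85.5-fold above the dimmest. PPARG, the receptor that directs fat cell formation, read 11.88, 6.34 and 10.58 in Large White and 4.85, 6.54 and 6.01 in the Northeastern Indigenous boars. The same 2 Large White arrays were high, with 46.7-fold between the Large White extremes, and replicate 2 again lay inside the other breed's range.

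LEP encodes leptin, the hormone through which fat stores act on appetite. Its brightest probe set (ending S2_at) read 10.20, 6.72 and 8.13 in Large White and 6.61, 7.13 and 5.75 in the Northeastern Indigenous boars. Here replicate 1 was high, replicate 3 was 2.07 log2 units lower than it, and Large White replicate 2 lay inside the Northeastern Indigenous range. A second probe set (ending S3_at) read 10.88, 2.70 and 9.30 in Large White and 0.79, 2.64 and 2.30 in the Northeastern Indigenous boars. On it the breeds did not overlap, but the gap between Large White replicate 2 and the highest Northeastern Indigenous array was 0.05 log2 units, and both lie far below the array median. Its mean of 4.77 over the 6 arrays kept this probe set out of the test.

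The other 2 LEP probe sets belong to the array's control set and were described only. The one named Leptin_M read 7.47, 3.32 and 6.32 in Large White and 5.90, 3.57 and 5.88 in the Northeastern Indigenous boars, with the breeds overlapping. The one named Leptin_5 read 8.03, 7.41 and 6.81 against 7.07, 7.05 and 7.49, a range of only 1.22 log2 units in Large White, and Large White replicate 3 was its lowest array. The LEP probe sets thus shared their highest array and differed in how far the arrays were spread, from 1.22 to 8.18 log2 units in Large White.

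FABP4, the fatty acid carrier abundant in fat cells, read 14.66, 11.88 and 14.42 in Large White and 11.80, 12.40 and 11.79 in the Northeastern Indigenous boars. It was bright on every array, including those where ADIPOQ was near the median, and Large White replicate 2 lay inside the Northeastern Indigenous range. On Large White replicates 1 and 3 it was brighter than 99.7% and 99.5% of probe sets, a part of the scale where quantile normalization changed it: the difference between breeds was -1.66 log2 units normalized and -1.31 as deposited.

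LPL, the lipase that frees fatty acids from blood lipoproteins, is made by muscle fibres as well as fat cells. Its probe set ending S2_at read 13.46, 10.01 and 12.52 in Large White and 10.68, 11.06 and 11.32 in the Northeastern Indigenous boars. Large White replicates 1 and 3 were again high, but replicate 2 was the lowest of all 6 arrays. The one ending S1_at read 12.15, 8.37 and 10.73 in Large White and 8.74, 9.50 and 9.10 in the Northeastern Indigenous boars, with the same array lowest.

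LIPE, the hormone-sensitive lipase that breaks down stored fat, read 10.77, 3.19 and 9.13 in Large White and 2.0, 3.44 and 6.77 in the Northeastern Indigenous boars. Among the tested members it had the widest Northeastern Indigenous range, 4.77 log2 units, with replicate 3 just above the array median and the other 2 far below it. PLIN2, a droplet coat protein found in most cell types, muscle included, read 9.14, 6.75 and 7.92 in Large White and 6.98, 6.85 and 7.48 in the Northeastern Indigenous boars. It spread least among the 8 tested probe sets in Large White, 5.26-fold between extremes, and Large White replicate 2 was its lowest array.

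**Figure D1:**
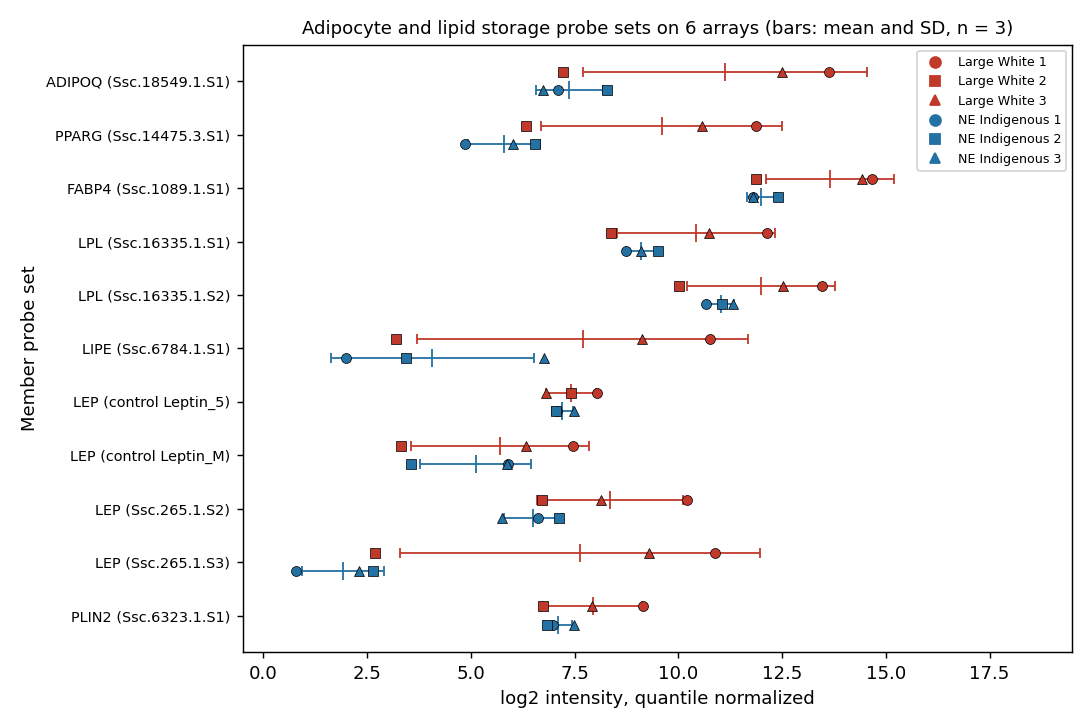
Log2 intensity (x axis, quantile normalized) of the 11 probe sets (y axis) on 3 Large White arrays (red) and 3 Northeastern Indigenous arrays (blue), where the marker shape gives the replicate and the bar the mean and SD. Large White replicates 1 and 3 lie to the right of all other arrays in 10 of 11 probe sets, and ADIPOQ reads 13.64 and 12.50 on them against at most 8.29 elsewhere.

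Across the 11 probe sets Large White replicate 1 was the brightest array in 11 and Large White replicate 3 the second in 10, the exception being the control probe set Leptin_5. Among the tested probe sets that order held in 8 of 8, and it held in 20.3% of all 14399 tested. Large White replicate 1 lay at least 4 log2 units above replicate 2 in 3 of the 8 (ADIPOQ, PPARG and LIPE), and in 0.743% of all tested. That cut was chosen with earlier results of these data known, so these shares describe the arrays and are no test. Large White replicate 2 lay inside the Northeastern Indigenous range in 5 of the 8, against 40.9% of all tested. In LPL (both probe sets) and PLIN2 it lay below that range. PPARG and LIPE entered the test through the bright Large White arrays, since their Northeastern Indigenous means of 5.80 and 4.07 are under the filter, so the tested members are not counted as support for a shared direction.

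The comparison the study was built on, Northeastern Indigenous minus Large White, gave negative differences for 8 of the 8 tested probe sets, as for 44.2% of all tested, and none passed. PPARG averaged 9.60 ± 2.90 in Large White and 5.80 ± 0.87 in the Northeastern Indigenous boars (SD, n = 3 each), a difference of -3.80 ± 1.33 (SE; limma adjusted p = 0.234). ADIPOQ differed by -3.74 ± 1.54 (SE; 7.38 ± 0.81 against 11.12 ± 3.42; limma adjusted p = 0.261) and LIPE by -3.62 ± 2.05 (limma adjusted p = 0.339). LEP differed by -1.85 ± 0.85 and FABP4 by -1.66 ± 0.70. The LPL probe sets differed by -1.30 ± 0.87 and -0.97 ± 0.81, and PLIN2 by -0.84 ± 0.58, with limma adjusted p from 0.266 to 0.481 for these 5. At an adjusted p under 0.05 limma called 0 of the 8, against 0% of the 14399 probe sets. At an unadjusted p under 0.05 it found 2 of 8, PPARG and ADIPOQ, both lower in Northeastern Indigenous boars, where 9.97% of all tested were lower at that level. The breeds overlapped in 8 of 8, and 10.9% of all tested were lower in Northeastern Indigenous boars with no overlap. Under quantile normalization the median difference of all tested probe sets was 0.10, and it was -0.01 on the deposited scale. In bulk tissue, fewer fat cells and less RNA per fat cell cannot be told apart.

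Which Large White arrays entered the fit decided the call. Without Large White replicate 2, limma called 8 of 8 lower in Northeastern Indigenous boars, with adjusted p from 0.0044 to 0.0405. Differences ran from -5.88 (LIPE) to -1.43 (PLIN2). The filter used all 6 arrays, so PPARG and LIPE were in this fit only through the bright Large White arrays. The 8 of 8 is therefore not counted as support. In that fit 15.3% of all 14399 probe sets were also called lower and 30.7% were called in either direction. Without Large White replicate 1 the differences shrank to between -2.66 (PPARG) and -0.23 (PLIN2), and 0 of 8 passed, against 0.00694% of all tested. Without Large White replicate 3 they ran from -3.31 to -0.71, and 0 passed, as did 0% of all tested. With Large White replicate 2 as the only Large White array, 6 of 8 changed sign, to 1.01 and 0.74 for LPL, 0.88 for LIPE, 0.35 for PLIN2, 0.16 for ADIPOQ and 0.12 for FABP4, while PPARG stood at -0.54 and LEP at -0.22. There 0 of 8 passed, and 0% of all tested. With array weights, which put nearly all weight on Large White replicate 3, limma called 8 of 8 and also 59% of all tested. The lowest adjusted p with Large White replicate 2 alone was 0.303 in limma, with a single Large White array assumed to vary like the Northeastern Indigenous ones.

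**Figure D2:**
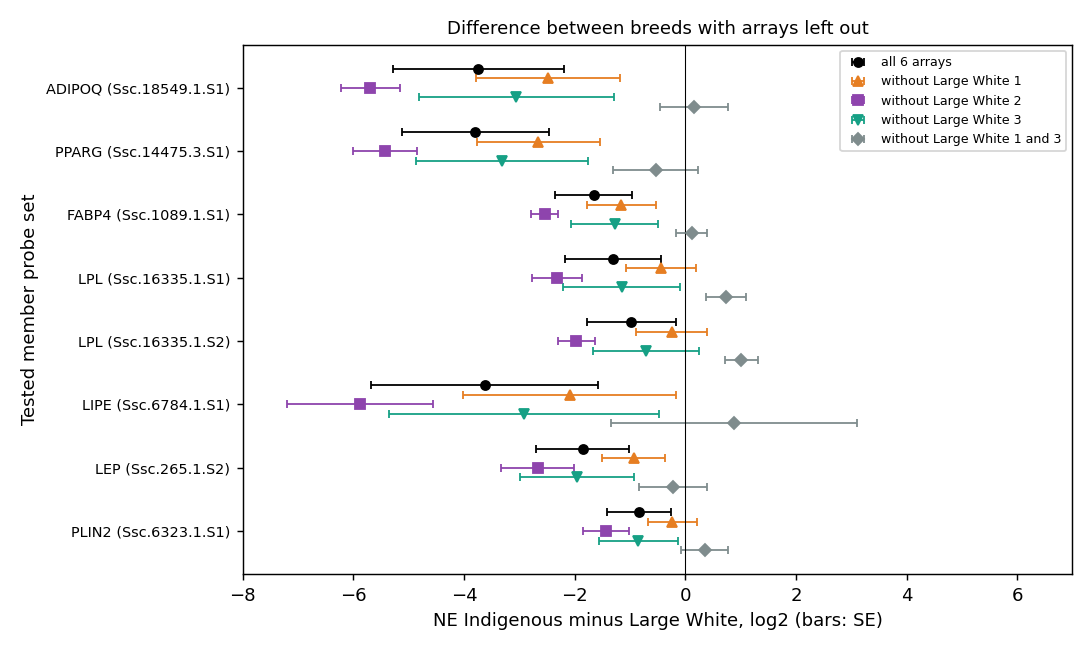
Difference between breeds (x axis, log2, Northeastern Indigenous minus Large White) with its SE for the 8 tested probe sets (y axis), with all 6 arrays and with Large White arrays left out. The values lie farthest from 0 without Large White replicate 2, down to -5.88 for LIPE, and between -0.54 and 1.01 when replicate 2 is the only Large White array.

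The spread inside Large White was larger than that inside Northeastern Indigenous boars in 11 of 11 probe sets. For ADIPOQ the SDs were 3.42 and 0.81, for PPARG 2.90 and 0.87, for LIPE 3.99 and 2.44, and for FABP4 1.54 and 0.35. The medians over all 14399 tested probe sets were also larger in Large White, at 0.49 against 0.27. The 11 of 11 is therefore not particular to the members, and the share of all tested probe sets in that direction was not counted. In Large White, the SD of LIPE was larger than that of 99.97% of tested probe sets, that of ADIPOQ than 99.84% and that of PPARG than 99.5%, while PLIN2, at 1.20, exceeded 89.2%. In Northeastern Indigenous boars LIPE was still above 99.9%, ADIPOQ and PPARG were above 94.3% and 95.1%, and FABP4 (63.4%), PLIN2 (60.6%) and LPL (67.9% and 59.3%) lay closer to the middle, with the tested LEP probe set at 90.9%. Among the tested probe sets ADIPOQ, PPARG and LIPE spread over 5.55 to 7.58 log2 units in Large White, and FABP4, LPL, PLIN2 and LEP over 2.39 to 3.77. The untested LEP probe sets fell on no one side, at 8.18 (ending S3_at), 4.14 (Leptin_M) and 1.22 (Leptin_5).

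**Figure D3:**
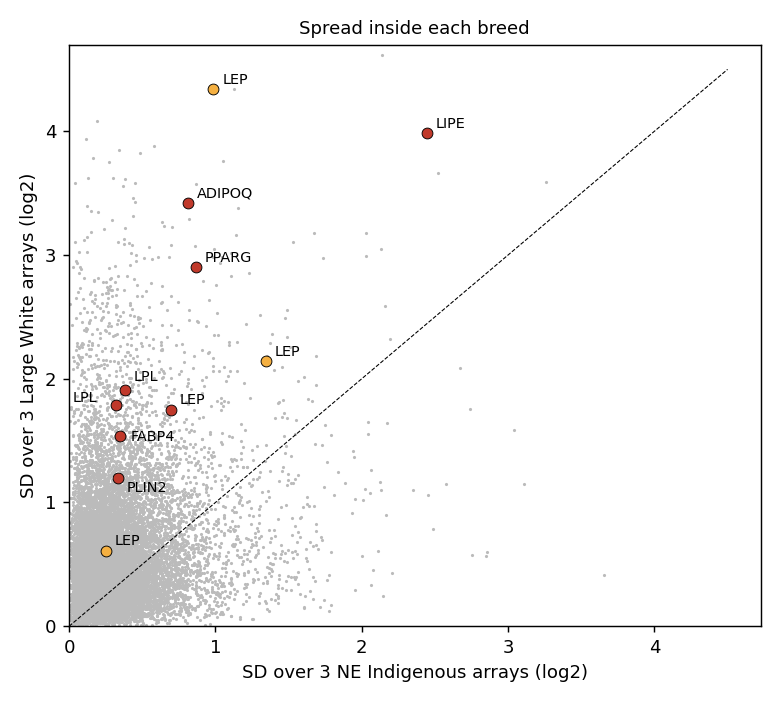
SD over the 3 Large White arrays (y axis, log2) against SD over the 3 Northeastern Indigenous arrays (x axis, log2) for all tested probe sets (grey) and the members (red where tested, orange where not), with equal SDs on the dashed line. All 11 members lie above the line, on the same side as the median SDs of all tested probe sets, 0.49 and 0.27. LIPE stands out in both breeds, with SDs of 3.99 and 2.44.

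The genes of most similar pattern were sought among 5294 other named genes, by the root mean square distance between log2 profiles centred on their own mean over the 6 arrays. For ADIPOQ the nearest was PPARG, at 0.55 log2 units, where the median gene lay at 2.82. TNC, a matrix protein, and ELOVL6, a fatty acid elongase, followed at 0.61 and 0.62. Nearest to PPARG were SGK2, a kinase, at 0.32, FASN, which makes new fatty acids, at 0.47 and CIDEA, a droplet protein, at 0.51. CIDEA read 11.31, 6.66 and 10.17 in Large White and 5.56, 5.99 and 5.44 in the Northeastern Indigenous boars. Unlike PPARG it stood higher on Large White replicate 2 than on any Northeastern Indigenous array.

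LIPE had no close neighbour beyond CRABP2, a retinoic acid carrier, at 0.73; LOX, which crosslinks collagen, came next at 1.20 and PPARG at 1.40. FABP4 was followed closely by ACTG2 (0.11), BNIP3L (0.14) and NPC2 (0.15), LPL by TMEM135 (0.21), THBS3 (0.21) and PEX3 (0.23), LEP by MDFIC (0.29), SLC25A1 (0.30) and MRAS (0.33), and PLIN2 by PDCD6 (0.13), YIPF1 (0.16) and PPP2R1B (0.18). Among members, LPL and PLIN2 were 0.44 apart and LPL and FABP4 0.49, while ADIPOQ and PLIN2 were 2.09 apart. The measure follows amplitude as well as order, and without quantile normalization 10 of the 21 named neighbours were kept, among them PPARG for ADIPOQ, SGK2 and CIDEA for PPARG and CRABP2 and LOX for LIPE.

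Partners of these proteins did not all follow them. Of 25 partner genes listed by role, 20 had a probe set under their symbol and 17 were tested, with 8 differences below 0, 9 above 0 and 0 past the adjusted threshold (lowest adjusted p in limma 0.224). The breeds did not overlap in 3, MGLL, CDH13 and GPIHBP1, against 25.1% of all tested in either direction. At an unadjusted p under 0.05 there were 5 of the 17, against 18.8% of all tested.

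Among the receptors and transcription partners, the adiponectin receptors stood on opposite sides on Large White replicates 1 and 3. ADIPOR2 read 13.85, 10.36 and 12.05 in Large White and 10.39, 10.53 and 10.75 in the Northeastern Indigenous boars, high on the same 2 arrays as its ligand. Its dimmer probe set read 8.92, 7.39 and 7.94 against 7.62, 7.76 and 7.56, with the same 2 arrays highest but Large White replicate 3 little above the others. ADIPOR1 read 9.26, 10.75 and 9.80 against 10.93, 10.88 and 10.53, low on those arrays. CDH13, a surface cadherin that binds adiponectin, read 10.83, 10.44 and 11.31 against 9.83, 10.15 and 10.31, and differed by -0.77 ± 0.31 (SE; limma adjusted p = 0.255), or by -0.35 without Large White replicates 1 and 3. LEPR, the leptin receptor, was dim throughout, at 2.69 to 4.54, and was not tested.

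RXRA, a retinoid X receptor that pairs with PPARG, read 5.76 to 6.67 in Large White and 5.25 to 6.39 in the Northeastern Indigenous boars, and CEBPB, which acts early in fat cell formation, 11.63 to 12.11 against 11.45 to 12.67. Neither gene showed the PPARG pattern. CEBPA, which acts with PPARG in later steps, had 2 dim probe sets that disagreed and were not tested. One read 8.46, 4.96 and 7.35 against 3.98, 2.51 and 1.87, bright on the 2 Large White arrays, and the other read 5.97, 6.07 and 3.94 against 6.16, 3.96 and 4.6.

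GPIHBP1, which holds LPL on the capillary wall, lacked the LPL pattern. It read 6.35, 6.39 and 6.14 in Large White and 7.56, 7.28 and 7.66 in the Northeastern Indigenous boars, with no overlap and SDs of 0.14 and 0.20. All 3 Large White arrays were low, replicate 2 included. The difference was 1.20 ± 0.27 log2 units (SE; limma adjusted p = 0.224), and it stood at 1.10 with Large White replicate 2 as the only Large White array. The levels lie on both sides of the array median.

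Of the lipases that act beside LIPE, PNPLA2, which takes the first fatty acid off triglyceride, read 11.01 to 11.28 in Large White and 11.04 to 11.88 in the Northeastern Indigenous boars, without the LIPE pattern. Its dimmer probe set read 5.64, 6.33 and 6.38 against 6.59, 7.17 and 6.92, with no overlap and a difference of 0.78 ± 0.35 (SE; limma adjusted p = 0.276). Large White replicate 2 stood at -0.56 relative to the Northeastern Indigenous mean on it. MGLL, which takes off the last, read 11.08, 9.71 and 9.72 against 8.85, 9.42 and 9.0, with all 3 Large White arrays above the others, and differed by -1.08 ± 0.43 (SE; limma adjusted p = 0.254). The difference was -0.63 without Large White replicate 1 and -0.62 without replicates 1 and 3. Its other probe set differed by -0.79 ± 0.38 with all 6 arrays, and Large White replicate 2 lay 0.34 above the Northeastern Indigenous mean on it. ABHD5, the activator of PNPLA2, read 10.11, 8.04 and 8.77 against 8.47 to 8.76, high on Large White replicate 1.

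For triglyceride assembly, DGAT2, which adds the last fatty acid, followed the members, at 13.14, 8.07 and 11.26 in Large White and 6.70, 8.78 and 5.89 in the Northeastern Indigenous boars (difference -3.70 ± 1.30, SE; limma adjusted p = 0.234). The difference was -0.95 without Large White replicates 1 and 3. AGPAT2, an earlier step in the same route, read 6.30, 8.26 and 7.39 against 8.36, 8.38 and 8.09, low where DGAT2 was high. GPAM, the first step, read 6.0, 6.79 and 5.87 against 6.77, 7.07 and 7.70. Its dimmer probe sets were below the filter. One read 4.38, 5.77 and 2.01 against 4.60, 5.69 and 5.83, and the other 5.33, 5.70 and 5.29 against 5.57, 5.18 and 5.77. ACSL1, which activates fatty acids, read 13.15, 11.66 and 11.98 against 12.75 to 13.02.

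The relatives of FABP4 and PLIN2 spread less. FABP3, the muscle carrier, read 13.09 to 14.83 in Large White and 13.95 to 14.28 in the Northeastern Indigenous boars, and was lowest on Large White replicate 2, as LPL was. FABP5, a carrier of skin and other tissues, read 12.73 to 14.05 against 12.81 to 12.97. Its dimmer probe set read 13.80, 12.60 and 12.39 against 12.33, 12.76 and 12.36, high on Large White replicate 1 only. PLIN3, a droplet coat protein of many cells, read 7.75 to 8.67 against 7.52 to 8.02. PPARD, a relative of PPARG active in muscle, read 6.25, 7.93 and 7.13 against 7.11 to 7.60 on its brightest probe set, lowest where PPARG was highest. Its other probe sets were below the filter and were not lowest on that array. One read 4.86, 4.04 and 6.06 against 3.90, 2.46 and 3.79, and the other 5.71, 5.47 and 3.41 against 7.04, 3.88 and 6.46. PPARA read at most 2.86 on the brightest of its probe sets and was not tested.

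**Figure D4:**
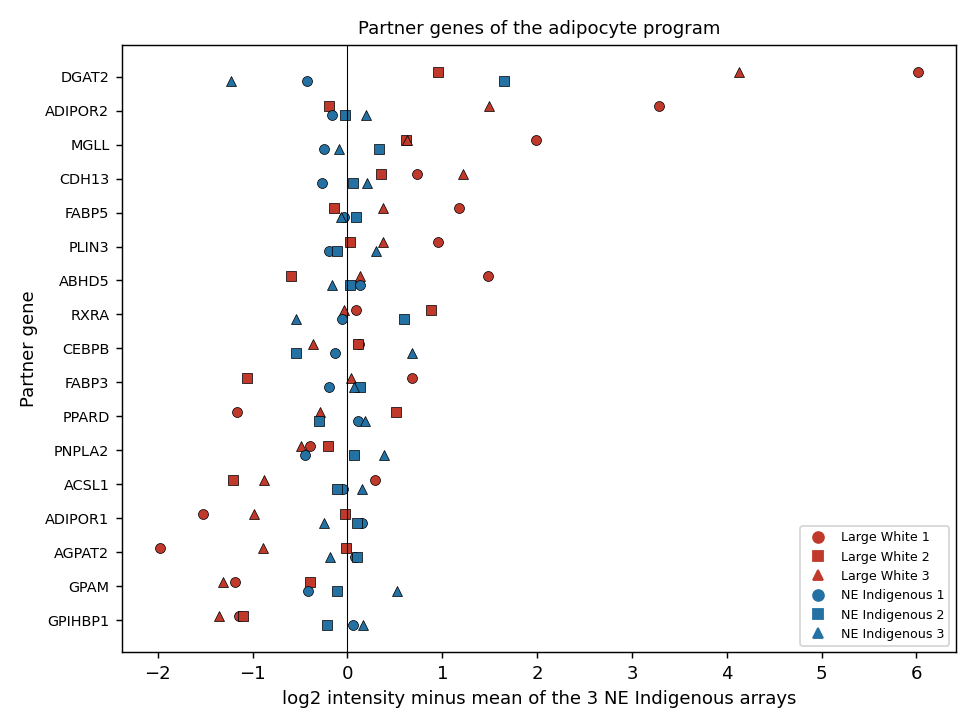
Log2 intensity of the 17 tested partner genes (y axis) on each array, minus the mean of the 3 Northeastern Indigenous arrays (x axis), with Large White in red and Northeastern Indigenous in blue and the marker shape giving the replicate. Each gene is shown by its brightest probe set. DGAT2 and ADIPOR2 are high on Large White replicates 1 and 3, AGPAT2 and ADIPOR1 are low there, and GPIHBP1 is low on all 3 Large White arrays.

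Wider lists by role showed 0 genes past the adjusted threshold in either direction, as for all tested probe sets, whose median difference was 0.10. The lipid droplet list (6 of 16 genes tested) had a median of -0.56, with 5 values below 0 and 1 above. Within it FITM1, a droplet-forming protein of muscle, read 6.12, 12.98 and 11.33 in Large White and 12.05 to 12.12 in the Northeastern Indigenous boars. FITM1 was low on Large White replicates 1 and 3, where CIDEA was high. On Large White replicate 2 both genes stood above the Northeastern Indigenous arrays. The adipokine and receptor list (8 of 13) had a median of -0.81, with 6 below 0 and 2 above, and CFD, the adipsin gene, read 12.51 to 13.05 against 11.54 to 12.68. RBP4, a retinol carrier secreted by fat cells, was below the filter and read 8.61, 3.62 and 8.93 against 3.18, 6.60 and 2.69. The lipolysis list (7 of 12) had a median of -0.34 with 4 below 0 and 3 above, and lipid uptake and activation (10 of 14) -0.15 with 5 and 5. Triglyceride synthesis (9 of 12) had 0.12 with 4 and 5, and adipogenic transcription (10 of 16) 0.06 with 4 and 6. These medians rested on the arrays used. Without Large White replicate 1 the lipid droplet median was -0.32, the lipolysis median 0.23 and the uptake median 0.12, and the uptake median was 0.036 with median centring. With replicate 2 as the only Large White array they stood at -0.055 for lipid droplets, -0.22 for adipokines, 0.12 for lipolysis and 0.43 for uptake. For triglyceride synthesis the value was then -0.0092 and for adipogenic transcription -0.19, and both were also below 0 on the deposited scale, at -0.022 and -0.093. Triglyceride synthesis stood at -0.0091 without Large White replicate 3. Members belong to 5 of these 6 lists, all but triglyceride synthesis.

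Summed fibroblast and leukocyte markers were highest on Large White replicates 1 and 3, as most members were. The nerve sum had the same order, but its marker MBP was highest on Large White replicate 2. The skeletal muscle sum was lowest on replicates 1 and 3, and endothelium, smooth muscle and red blood cells shared neither pattern. The part of these cells in the member differences was not tested. The summed intensity of 8 of 9 skeletal muscle markers was 43983 on Large White replicate 1, 198727 and 161771 on Large White replicates 2 and 3, and 193535 to 218097 in Northeastern Indigenous boars. For 6 of 8 fibroblast and matrix markers the sum was 62974 and 48622 on Large White replicates 1 and 3, 19792 on replicate 2 and 13707 to 20451 in Northeastern Indigenous boars. Within that list COL3A1, a fibrillar collagen, was the exception, at 8.55, 10.35 and 9.78 in Large White and 9.91, 9.97 and 11.36 in the Northeastern Indigenous boars. For 7 of 10 leukocyte markers it was 22861, 6819 and 19796 in Large White and 1874 to 3770 in the Northeastern Indigenous boars, so the sum on Large White replicate 2 also lay above the other breed. On that array CD163, AIF1, C1QC and CD74 each lay above the Northeastern Indigenous range. PTPRC, CD14 and CD3E lay inside it. FABP4 is also made by macrophages and capillary cells. The endothelial sum (5 of 7) was 2263 to 2668 in Large White and 2063 to 2928 in the Northeastern Indigenous boars. Smooth muscle (3 of 4) ran from 3560 to 5393 and from 6310 to 7038, nerve (2 of 5) from 1568 to 2017 and from 807 to 1471, and red blood cells (4 of 5) from 4128 to 9568 and from 2129 to 13137. None of these lists held a marker at 0. The adipocyte sum, over 5 members of a list of 7, was 45297, 4110 and 30079 in Large White and 3824 to 5959 in the Northeastern Indigenous boars.

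**Figure D5:**
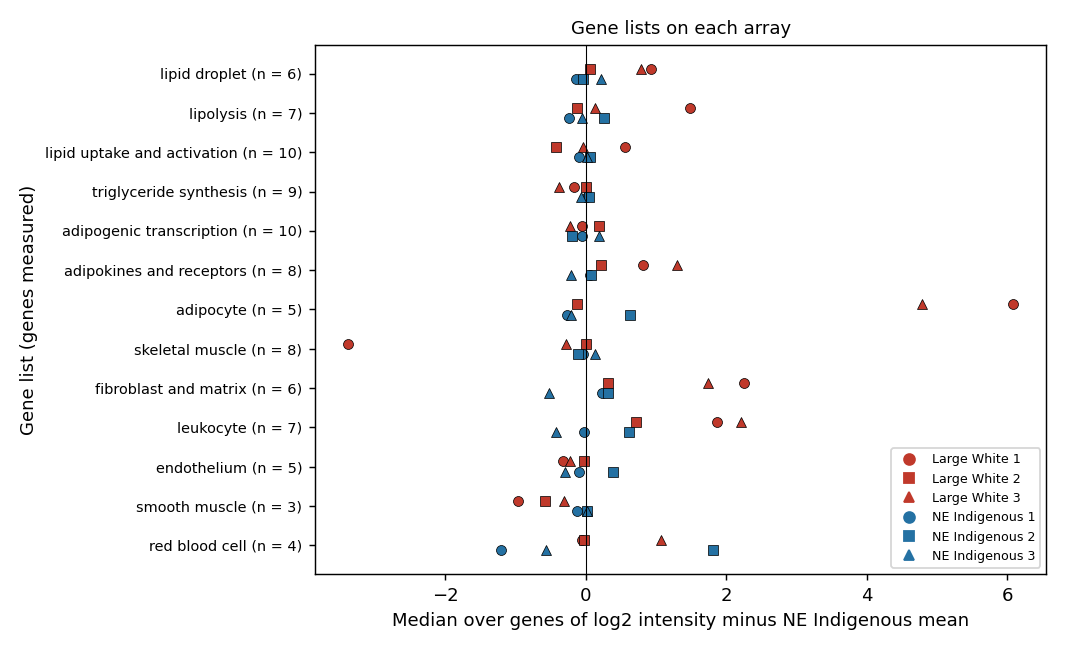
Median over the genes of each list of the log2 intensity minus the Northeastern Indigenous mean (x axis) on each array, for lists with at least 3 tested genes (y axis), with Large White in red and Northeastern Indigenous in blue. The adipocyte list, made of members, stands at 6.08 and 4.78 on Large White replicates 1 and 3 and at -0.12 on replicate 2, and the skeletal muscle list at -3.38 on Large White replicate 1.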

How the data were processed

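Each array file as deposited holds linear intensity values, 1 for each of the 24123 probe sets; their software and settings were not given in the sources used here. Intensities were taken as log2 and quantile normalized without the 124 control probe sets, because the array medians spanned 0.35 log2 units. The 2 LEP control probe sets were placed on that scale by each array's own mapping. Names came from the platform annotation; all 7 genes were found in the RefSeq table of the pig assembly Sscrofa11.1, and 0 symbols changed. No genome build is given for the array, so no coordinates are printed. The fit covered 14399 probe sets with limma 3.58.1 in R 4.3.3 (lmFit, eBayes with an intensity trend, two-sided, 4 residual degrees of freedom), with Benjamini-Hochberg adjusted p under 0.05. A simulation with independent noise and the same SD in both breeds was also run. It held no shift shared by the probe sets of an array, so it does not bear on the calls here. Where a gene had several probe sets, partner and list genes were read from the brightest. No detection calls were used, so dim values have no known floor.

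The named genes are all member probe sets, the 3 nearest genes of each member, 25 partner genes, 2 muscle genes and the tested leukocyte markers. CIDEA, FITM1, CFD, RBP4 and COL3A1 were picked from the lists after their values were seen. Members, lists and tests were chosen with earlier results of these data known. Alternatives covered scaling, filter, offset, variance prior, array weights, a block for the replicate number, and leaving out arrays. Replicate numbers were not treated as pairs in the main fit. Deviations of same-numbered arrays from their breed means correlated at -0.02, -0.16 and -0.11, which cannot show that the animals were unpaired. P-values set each breed difference against the spread between animals inside the breeds, with 3 animals in each.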

Additional observations from a re-analysis of the deposited data

How the results depend on the processing

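The count of 0 member probe sets past the threshold held on the deposited scale, with median centring, without a filter, with a 60th percentile filter, with an offset of 16, with both other variance priors and with the replicate number as a block (0 members in each, and 0 of all probe sets except with median centring). Without the filter the dim LEP probe set differed by -5.71 ± 1.91 (SE; limma adjusted p = 0.287). Array weights gave Large White replicate 3 a weight of 42.0, the next highest being 1.36, and called 8 members and 8499 of all probe sets. Leaving out 1 array gave 0 to 8 members and 0 to 4421 of all, with the 8 and the 4421 without Large White replicate 2; median centring gave 1 of all. Of 126 recomputed member differences 120 kept their direction. The 6 others all arose without Large White replicates 1 and 3 together, a setting chosen with the data known, at 0.16 for ADIPOQ, 0.12 for FABP4, 0.74 and 1.01 for LPL, 0.88 for LIPE and 0.35 for PLIN2. In that setting partner genes reversed to 0.14 (FABP5), -0.52 (PPARD), 0.20 (ADIPOR2), -0.12 (CEBPB), 0.60 (ABHD5), -0.016 (DES) and -0.039 (CKM). With array weights FABP3 stood at -0.069 and RXRA at 0.054. Leaving out 1 array gave -0.36 to 0.51 for FABP3, -0.11 to 0.73 for PPARD, -0.30 to 0.31 for CEBPB and -0.81 to 0.23 for ABHD5. The causes were not tested beyond which arrays entered. With 3 animals per breed and no detection calls, it is not known which of the dim LIPE and LEP values lie above background.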
